A study of Homo sapiens with 12 samples.

Results

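Human liver spheroid co-cultures expressed 52 neuroactive ligand and receptor genes, and these 52 genes are described here. They were chosen by annotation and by mean level, and are the genes annotated to the KEGG pathway neuroactive ligand-receptor interaction, without those also annotated to the complement and coagulation cascades, that had a mean FPKM (fragments scaled to transcript length and sequencing depth) of at least 0.5 over 12 libraries. The pathway annotation without the complement and coagulation genes covered 218 of the 16705 genes in the table, and 166 of the 218 were below the limit, 130 of them below 0.1 FPKM. In all, 11713 genes of the table reached the limit and were tested.

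The spheroids held 2 cell lines, the hepatocyte-like C3A, which was cloned from HepG2 liver tumour cells, and LX-2, which stands for the stellate cells of the liver in their activated, collagen-producing state. There were 4 groups with 3 libraries each, namely untreated spheroids at 24 h, spheroids exposed to 1% total parenteral nutrition (TPN) for 24 h, untreated spheroids at 144 h and spheroids exposed to 1% TPN for 144 h. TPN is an intravenous nutrient mixture of amino acids with electrolytes, glucose and lipid emulsion, here with trace elements and vitamins. The study asked how TPN affects liver cells. Each library came from RNA of many pooled spheroids of the same lines, and the study describes its sequencing replicates as independent experiments. The p values therefore measure the spread between experiments with the same lines, and not between donors.

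Neuroactive ligands are transmitters, peptides, nucleotides and lipid mediators that act on receptors at the cell surface. Most of these receptors couple to heterotrimeric G proteins, others are ligand-gated channels, and the annotation also takes in hormone receptors that act in the nucleus and cytokine-type receptors. In the liver, receptors for nucleotides, adenosine, angiotensin, catecholamines and lysophospholipids are known from hepatocytes and from stellate cells.

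The identity of the cultures was checked with marker genes. The summed FPKM of 10 hepatocyte markers was between 12835 and 18831 in every library, with a range of 16333 to 16636 in untreated spheroids at 24 h, 14843 to 14988 in exposed spheroids at 24 h, 17407 to 18831 in untreated spheroids at 144 h and 12835 to 13884 in exposed spheroids at 144 h. For 12 stellate cell and myofibroblast markers the corresponding ranges were 138 to 146, 123 to 126, 75.8 to 80.7 and 70.5 to 73.1 FPKM. COL1A1, the main fibrillar collagen chain, had group means of 15.1 FPKM in untreated spheroids at 24 h and of 1.92 and 0.747 in untreated and exposed spheroids at 144 h, and DES did not exceed 0.09 FPKM in any library. Of the neuronal markers, SNAP25, SYT1 and STMN2 did not exceed 0.1 FPKM, and SYP, a synaptic vesicle protein, had a mean of 0.556 and a highest value of 1.03 FPKM. The endothelial markers were likewise low and summed to at most 1.07 FPKM, whereas TUBB3, a tubulin counted among neuronal markers, lay between 65.9 and 112 FPKM. In bulk RNA, fewer cells of a type and less RNA per cell cannot be told apart, and the part of these marker shifts in the results below was not tested.

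The members were mostly low in abundance. Their median of mean FPKM was 2.5, compared with 11.1 over all genes tested, and 8 members had a mean of at least 10 FPKM while 21 were below 2 FPKM. In 45 members the mean of every group reached 0.5 FPKM. The other 7, P2RX1, AGTR1, AVP, GPR83, GNRH1, LTB4R and MCHR1, were below it in at least 1 group. Just inside the limit were MCHR1, with a mean of 0.572 FPKM, and RXFP4, with 0.645 FPKM, and just outside were LTB4R2, with 0.486 FPKM, and LHB, with 0.483 FPKM. Steps in the FPKM of short genes gave an estimated depth of 1.79e+07 to 1.88e+07 fragments per library, and at that depth 9 members had fewer than 30 fragments per library at their mean FPKM. NPFF, OXT, AVP and GNRH1 had fewer than 10, so their values carry a large counting error.

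**Figure D1:**
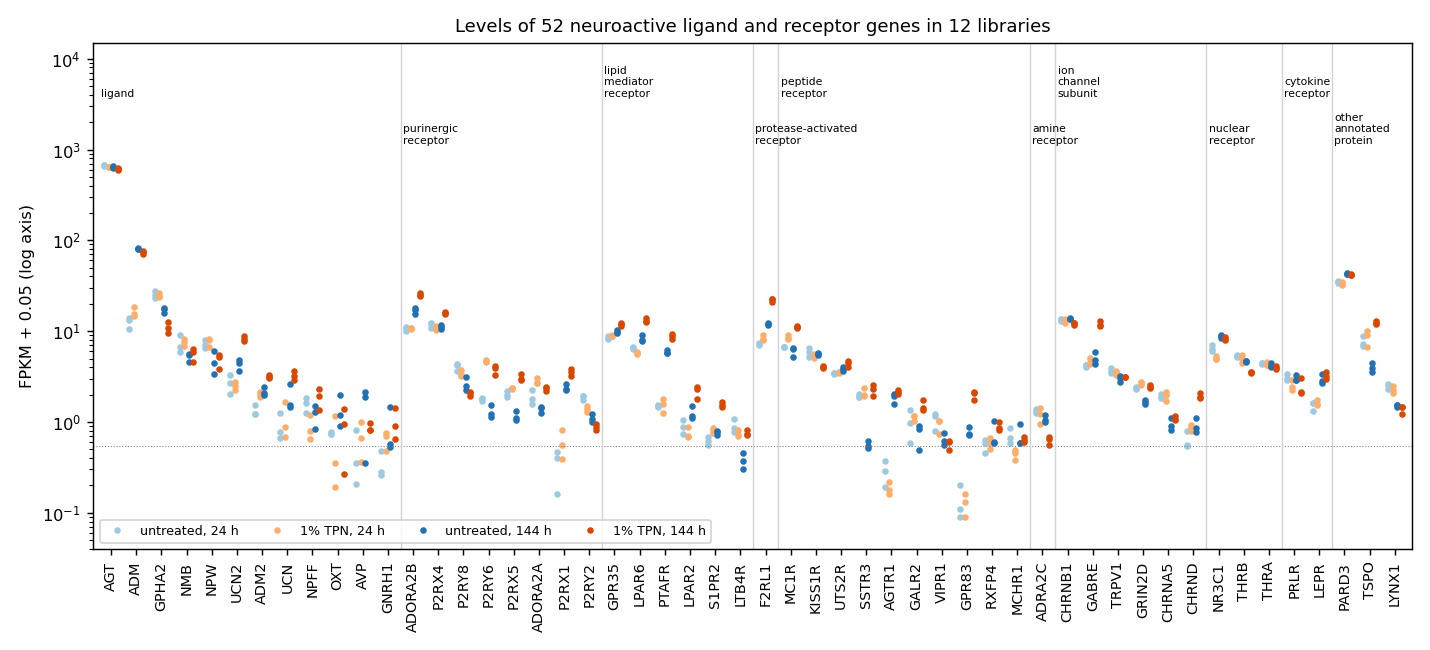
FPKM + 0.05 on a log axis for the 52 members in the 12 libraries, 1 point per library, coloured by group and ordered by role and by mean level, with the 0.5 FPKM limit as a dotted line. AGT lies far above all other members, and the 12 points of P2RX1, AGTR1, GPR83, PTAFR and ADM fall into separate levels at 24 h and 144 h.

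AGT, the precursor of the angiotensins and a major secreted product of hepatocytes, was the most abundant member. It stood at 673, 674 and 665 FPKM in untreated and 644, 646 and 643 FPKM in exposed spheroids at 24 h, and at 648, 630 and 651 against 617, 591 and 631 FPKM at 144 h. The exposed libraries were all lower at 24 h and overlapped with the untreated ones at 144 h, and the log2 fold changes of -0.06 and -0.07 did not reach the fold threshold described below. Its receptor AGTR1, the type 1 angiotensin II receptor, had a mean of 1.06 FPKM over the 12 libraries.

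ADM, the vasodilator peptide adrenomedullin, was second at a mean of 45.9 FPKM. Its values were 14, 13.1 and 10.6 FPKM in untreated and 15.5, 18.4 and 14.7 FPKM in exposed spheroids at 24 h, and 79.9, 80.3 and 82.9 against 74.1, 70.8 and 76.4 FPKM at 144 h. Time separated these libraries far more widely than TPN did. The exposed libraries of ADM were all higher at 24 h (log2 fold change 0.37, adjusted p = 0.0177) and all lower at 144 h (-0.14, adjusted p = 0.219). The 144 h value minus the 24 h value was -0.50 (adjusted p = 0.00889), and none of these reached the fold threshold. PARD3, a cell polarity scaffold that is annotated to the pathway without being a classical ligand or receptor, was 34.5, 35.9 and 33.8 FPKM untreated and 33.1, 32.4 and 34.3 FPKM exposed at 24 h, and 43.3, 42.1 and 42.4 against 41, 41.2 and 42.2 FPKM at 144 h. Its untreated and exposed libraries overlapped at both times.

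ADORA2B, the low-affinity adenosine receptor that raises cyclic AMP, stood at 10.9, 10.7 and 9.96 FPKM in untreated and 10.7, 10.9 and 10.4 FPKM in exposed spheroids at 24 h. At 144 h it was 18, 15.4 and 17.2 FPKM untreated and 24.6, 24.7 and 26.1 FPKM exposed, so that the groups were apart at 144 h only, with a log2 fold change of 0.57 (SE 0.06, adjusted p = 1.59e-06) that just missed the fold threshold. CHRNB1, the beta 1 subunit of the muscle-type nicotinic acetylcholine receptor, was 13.7, 12.7 and 13.4 FPKM untreated and 13.2, 13.5 and 12.3 FPKM exposed at 24 h, and 13.6, 13.5 and 14 against 12.3, 12.3 and 11.7 FPKM at 144 h. The groups overlapped at 24 h and were apart at 144 h, with a log2 fold change of -0.18 (adjusted p = 0.00465) below the fold threshold.

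Exposure to TPN was compared with untreated spheroids at each time point on log2(FPKM + 0.1) with limma, and a differentially expressed gene (DEG) had to have an absolute log2 fold change above 0.58 together with a Benjamini-Hochberg adjusted p below 0.05, adjusted across the 11713 genes. The added 0.1, the pseudocount, makes fold changes of low genes smaller than the true change. After 144 h, 19 of the 52 members were DEGs, 17 higher and 2 lower in exposed spheroids, beside 9.48% of all genes tested (5.75% higher and 3.73% lower). The pathway was chosen with earlier results of these data known, so these counts describe the members and support nothing further. DEGs were more frequent among low genes. Among genes with a mean between 0.5 and 5 FPKM, 17.4% were DEGs at 144 h, as were 13 of the 35 members in that range, and from 5 FPKM upward it was 6.27% of genes and 6 of 17 members. The median log2 fold change at 144 h was 0.27 over the members and -0.02 over all genes tested, and 26 members had 3 exposed libraries above all 3 untreated ones (27.2% of all genes), 8 had them below (30.2%). Without the fold threshold, 32 members passed at 144 h, beside 52.5% of genes.

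**Figure D2:**
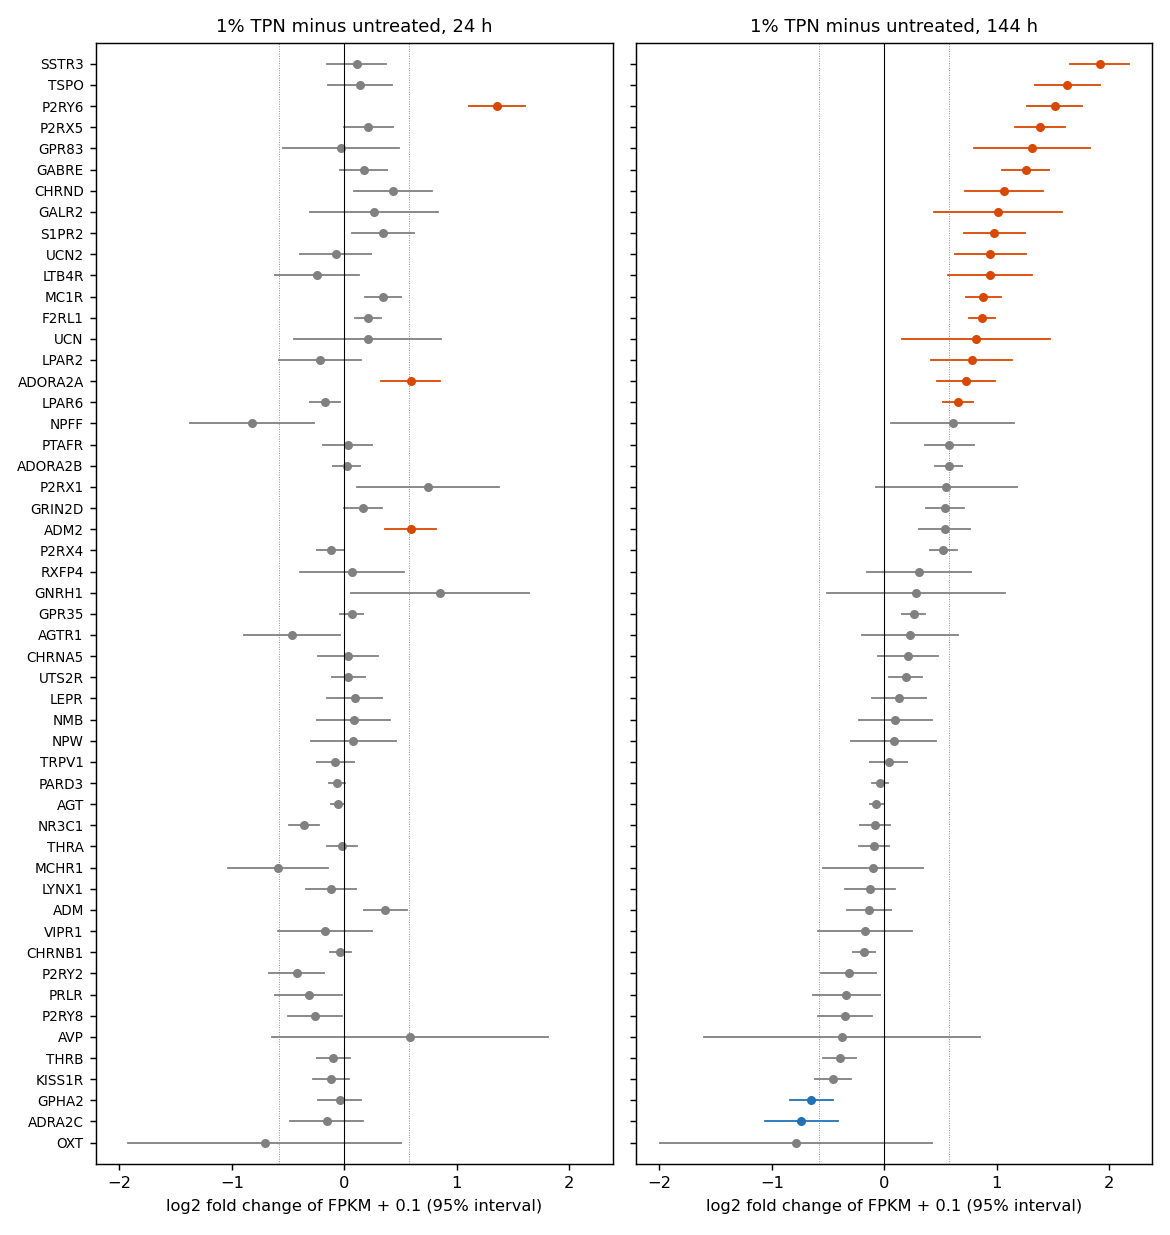
Log2 fold changes of FPKM + 0.1 with 95% intervals for 1% TPN minus untreated at 24 h (left) and 144 h (right), 1 row per member in the order of the 144 h value, with orange for DEGs that were higher, blue for DEGs that were lower and dotted lines at the fold threshold of 0.58. At 24 h 3 members are orange and none is blue, and at 144 h 17 are orange and 2 are blue.

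Of the 8 members of the purinergic receptor families, most of which bind extracellular nucleotides or adenosine, 3 were higher at 144 h and none was lower. Over all genes tested 5.75% were higher and 3.73% lower, and the counts by role here and below are a description only. P2RY6, the UDP receptor, stood at 1.08, 1.17 and 1.5 FPKM untreated and 4.13, 3.9 and 3.22 FPKM exposed, a log2 fold change of 1.52 (SE 0.12, 95% interval 1.27 to 1.76, adjusted p = 1.44e-07). It had already differed at 24 h, when it was 1.65, 1.79 and 1.76 FPKM untreated and 4.77, 4.59 and 4.47 FPKM exposed (log2 fold change 1.36, SE 0.12, adjusted p = 4.05e-06). Every exposed library was above every untreated library at either time.

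P2RX5, an ATP-gated cation channel, was 1.26, 1.05 and 1 FPKM in untreated and 3.31, 2.93 and 2.87 FPKM in exposed spheroids at 144 h (1.39, SE 0.10, adjusted p = 1.11e-07). At 24 h it was 1.83, 1.91 and 2.17 FPKM untreated and 2.34, 2.32 and 2.23 FPKM exposed. The groups were apart at both times, narrowly at 24 h (0.21, adjusted p = 0.222), and the untreated libraries at 144 h were the lowest of all.

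ADORA2A, the high-affinity adenosine receptor coupled to stimulatory G proteins, was 1.42, 1.21 and 1.39 FPKM untreated and 2.31, 2.37 and 2.17 FPKM exposed at 144 h (0.73, SE 0.12, adjusted p = 0.000192). At 24 h it was 2.21, 1.72 and 1.53 FPKM untreated and 2.67, 2.62 and 3.01 FPKM exposed (0.59, SE 0.12, adjusted p = 0.00628). The groups did not overlap at either time, but the 24 h value exceeded the fold threshold by little and became 0.56, 0.48 and 0.53 without untreated replicate 2, untreated replicate 3 and exposed replicate 3. The log2 fold changes of ADORA2A were 0.42 at 24 h and 0.49 at 144 h with a pseudocount of 1, and neither was then called.

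P2RX4, another ATP-gated channel, was 11, 10.5 and 11.6 FPKM untreated and 15.9, 16.1 and 15.6 FPKM exposed at 144 h, with values of 11.8, 12.2 and 10.8 against 10.2, 10.6 and 11.3 FPKM at 24 h. Its log2 fold change of 0.53 at 144 h (SE 0.06, adjusted p = 3.47e-06) was below the fold threshold although the libraries were fully apart. P2RY2, the receptor for ATP and UTP, had group means of 1.83 untreated and 1.34 exposed at 24 h and of 1.05 untreated and 0.82 exposed at 144 h, log2 differences of -0.42 and -0.31 that were also below it. P2RY8 and P2RX1, the latter an ATP-gated channel, had log2 fold changes of -0.35 and 0.55 at 144 h and were not DEGs.

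Lipid mediator receptors gave 4 DEGs among 6 members at 144 h, and all 4 were higher, beside 5.75% of all genes tested. With a pseudocount of 1, LPAR2, S1PR2 and LTB4R were not called. LPAR6, a receptor of lysophosphatidic acid, was 9.03, 7.69 and 7.96 FPKM untreated and 13.8, 12.8 and 12.4 FPKM exposed (0.66, SE 0.06, adjusted p = 1.19e-06), whereas at 24 h it was 6.61, 6.26 and 6.48 against 5.72, 5.86 and 5.56 FPKM. Its exposed libraries were therefore the lower ones at 24 h and the higher ones at 144 h, without a DEG call at 24 h (log2 fold change -0.17, adjusted p = 0.102). LPAR2, a second receptor of the same ligand, was 1.06, 1.44 and 1.1 FPKM untreated and 1.74, 2.28 and 2.37 FPKM exposed at 144 h (0.78, SE 0.17, adjusted p = 0.00156), and 0.69, 0.99 and 0.83 against 0.65, 0.83 and 0.63 FPKM at 24 h. Only the 144 h groups were apart, and with a pseudocount of 1 the value of LPAR2 was 0.51 and not called.

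S1PR2, a sphingosine 1-phosphate receptor, was 0.67, 0.72 and 0.75 FPKM untreated and 1.48, 1.62 and 1.42 FPKM exposed at 144 h (0.98, SE 0.13, adjusted p = 2.20e-05), and 0.64, 0.51 and 0.57 against 0.76, 0.7 and 0.8 FPKM at 24 h. The exposed libraries were above the untreated ones at both times, and with a pseudocount of 1 the value at 144 h was 0.55 and not called. S1PR2 shares exons with DNMT1, which had a log2 fold change of -0.37 at 144 h, and how reads in the shared stretch were assigned was not tested.

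LTB4R, the high-affinity leukotriene B4 receptor, was 0.32, 0.4 and 0.25 FPKM untreated and 0.67, 0.68 and 0.77 FPKM exposed at 144 h (0.94, SE 0.17, adjusted p = 0.000481), and 0.72, 1.03 and 0.81 against 0.65, 0.77 and 0.68 FPKM at 24 h. The untreated libraries at 144 h stood below the other 9. LTB4R shares exons with LTB4R2, the low-affinity receptor, whose group means were 0.557, 0.57, 0.267 and 0.55 FPKM in the order untreated 24 h, exposed 24 h, untreated 144 h and exposed 144 h, and how reads in the shared stretch were assigned was not tested. The log2 fold change of LTB4R at 144 h was 0.37 with a pseudocount of 1 and not called. PTAFR, the receptor of platelet-activating factor, had a log2 fold change of 0.58 at 144 h that did not exceed the threshold (group means 5.82 and 8.75 FPKM, adjusted p = 0.000267), and GPR35, a receptor with lipid and tryptophan-derived ligands, had 0.26 (adjusted p = 0.000366).

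F2RL1, the protease-activated receptor 2 that trypsin-like enzymes cleave, was the DEG of this set with the narrowest spread. It stood at 12, 12.2 and 11.7 FPKM untreated and 22.3, 22.3 and 21.1 FPKM exposed at 144 h (0.87, SE 0.05, 95% interval 0.76 to 0.98, adjusted p = 1.66e-08). At 24 h it was 7.39, 7.22 and 6.96 FPKM untreated and 9.07, 7.9 and 8.09 FPKM exposed, apart as well but with a log2 fold change of 0.21 (adjusted p = 0.0204).

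Of the 10 peptide receptors, 4 were higher at 144 h and none was lower, beside 5.75% and 3.73% of all genes tested. SSTR3, an inhibitory somatostatin receptor, had the largest log2 fold change of all members, although with a pseudocount of 1 it was 1.09, below the 1.44 of TSPO. Its FPKM was 0.47, 0.57 and 0.49 untreated and 2.27, 1.89 and 2.48 exposed at 144 h (1.92, SE 0.12, 95% interval 1.66 to 2.18, adjusted p = 2.35e-08). At 24 h it was 1.84, 1.99 and 1.83 untreated and 1.94, 2.31 and 1.9 exposed, which overlapped. The 3 untreated libraries at 144 h were lower than all other 9, and the exposed libraries at 144 h lay at about the 24 h level.

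GPR83, a G protein-coupled receptor for which the peptide PEN has been described as a ligand, was close to 0 at 24 h, with 0.15, 0.04 and 0.06 FPKM untreated and 0.08, 0.11 and 0.04 FPKM exposed. At 144 h it was 0.68, 0.66 and 0.82 FPKM untreated and 1.71, 2.1 and 2.02 FPKM exposed (log2 fold change 1.32, SE 0.24, and 0.77 with a pseudocount of 1). It passed the 0.5 FPKM limit through its 144 h libraries alone, so its differences are a description. PCSK1N, the precursor from which PEN is cut, had group means of 18.6 FPKM untreated and 11.9 FPKM exposed at 144 h.

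GALR2, a galanin receptor, was 0.44, 0.79 and 0.86 FPKM untreated and 1.71, 1.37 and 1.32 FPKM exposed at 144 h (1.01, SE 0.26, adjusted p = 0.00555), and 0.92, 0.53 and 1.32 against 1.12, 1.11 and 0.98 FPKM at 24 h. Its mean corresponded to 21 fragments per library, and with a pseudocount of 1 the value of GALR2 at 144 h was 0.55 and not called. MC1R, the melanocortin receptor known from pigment cells, was 6.46, 6.34 and 5.15 FPKM untreated and 11.3, 10.8 and 11.1 FPKM exposed at 144 h (0.88, SE 0.07, adjusted p = 3.59e-07), and 6.72, 6.67 and 6.67 against 9.02, 8.36 and 8.15 FPKM at 24 h (0.34, adjusted p = 0.00884). TUBB3, which lies next to MC1R, went from 69.2 to 111 FPKM at 144 h (0.68, adjusted p = 6.62e-09), and whether the 2 genes share reads was not tested. KISS1R, the kisspeptin receptor, had the most negative value among the peptide receptors at 144 h, -0.45 (5.51 against 3.99 FPKM, adjusted p = 0.000167), below the fold threshold. UTS2R, VIPR1, AGTR1, RXFP4 and MCHR1, receptors for urotensin, vasoactive intestinal peptide, angiotensin, an insulin-like peptide and melanin-concentrating hormone, had log2 fold changes from -0.17 to 0.31.

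ADRA2C, an inhibitory catecholamine receptor and the 1 amine receptor among the members, was lower with TPN at 144 h. Its FPKM was 0.94, 1.15 and 1.01 untreated and 0.6, 0.51 and 0.63 exposed (-0.74, SE 0.15, adjusted p = 0.000977), and at 24 h it was 1.35, 1.28 and 1.21 against 1.19, 1.37 and 0.9, which overlapped. Its value at 144 h was -0.36 with a pseudocount of 1 and not called.

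Among 6 ion channel subunits, 2 were higher at 144 h and none was lower, beside 5.75% and 3.73% of all genes tested. GABRE, the epsilon subunit of the GABA-A receptor, was 4.71, 5.87 and 4.32 FPKM untreated and 11.6, 11.4 and 12.8 FPKM exposed (1.26, SE 0.10, adjusted p = 1.47e-07), and at 24 h 4, 4.17 and 4.15 against 4.33, 4.55 and 5.07 FPKM. CHRND, the delta subunit of the muscle-type acetylcholine receptor, was 0.72, 1.05 and 0.8 FPKM untreated and 1.84, 2.01 and 1.8 FPKM exposed at 144 h (1.07, SE 0.16, adjusted p = 9.31e-05, and 0.64 with a pseudocount of 1), and 0.51, 0.74 and 0.5 against 0.81, 0.88 and 0.75 FPKM at 24 h. For both genes the exposed libraries lay above the untreated ones at each time, and by more at 144 h. GRIN2D, an NMDA receptor subunit, had a log2 fold change of 0.54 (adjusted p = 5.73e-05), CHRNA5 0.21 and TRPV1, the capsaicin receptor, 0.04, and none of these was a DEG.

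**Figure D3:**
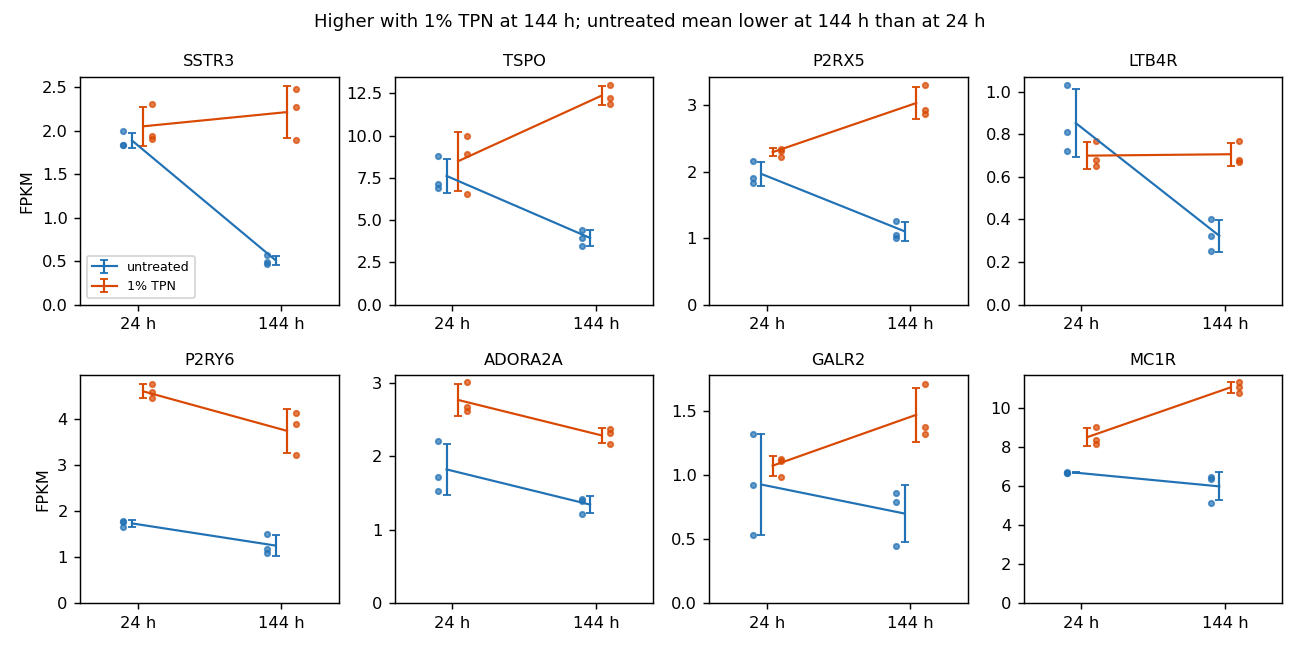
FPKM at 24 h and 144 h in untreated (blue) and exposed (orange) spheroids for 8 members that were higher with TPN at 144 h and whose untreated mean was lower at 144 h than at 24 h, with 1 point per library and lines between group means with SD bars. SSTR3, TSPO, P2RX5 and LTB4R are far apart at 144 h and close at 24 h, while P2RY6 and ADORA2A are apart at both times. The TPN and time differences at 144 h share the untreated 144 h libraries.

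The 3 nuclear receptors were not DEGs. NR3C1, the glucocorticoid receptor, had group means of 6.46 untreated and 5.02 exposed at 24 h (-0.36, adjusted p = 0.00217) and of 8.76 and 8.26 FPKM at 144 h (-0.08, adjusted p = 0.28). The thyroid hormone receptors THRA and THRB had log2 fold changes of -0.09 and -0.39 at 144 h. The cytokine-type receptors PRLR, for prolactin, and LEPR, for leptin, had -0.34 (adjusted p = 0.0557) and 0.13 (adjusted p = 0.354) at 144 h, neither a DEG.

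Of the 12 ligands, 2 were higher and 1 was lower at 144 h, beside 5.75% and 3.73% of all genes tested. UCN2, a corticotropin-releasing factor family peptide, was 3.56, 4.41 and 4.73 FPKM untreated and 8.77, 8.15 and 7.68 FPKM exposed (0.95, SE 0.15, adjusted p = 0.00011), and 1.99, 2.67 and 3.2 against 2.43, 2.18 and 2.72 FPKM at 24 h. Only the 144 h libraries were apart. UCN, a related peptide, was 1.49, 1.42 and 2.59 FPKM untreated and 2.88, 3.56 and 3.15 FPKM exposed at 144 h (0.82, SE 0.30, adjusted p = 0.0375), and 1.21, 0.61 and 0.72 against 0.63, 1.63 and 0.83 FPKM at 24 h. This was the least secure call, with adjusted p values of 0.115 and 0.127 without untreated replicates 1 and 2 of 144 h, 0.0538, 0.103 and 0.0752 without exposed replicates 1, 2 and 3, and 0.054 with the replicate number as a block. They were 0.0709 without the filter on low values and 0.0643 without the intensity trend, and over all alternatives they ran from 0.0062 to 0.127. UCN overlaps exons of TRIM54 on the opposite strand, which had a log2 fold change of 1.53 (adjusted p = 1.86e-06), and the libraries were strand-specific, but whether the counting used strand is not given in the sources used here.

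GPHA2, the alpha subunit of the glycoprotein hormone thyrostimulin, was the abundant ligand that fell. It was 18.1, 15.9 and 17.6 FPKM untreated and 10.9, 9.54 and 12.5 FPKM exposed at 144 h (-0.65, SE 0.09, adjusted p = 3.62e-05), and 23.3, 25.1 and 27.6 against 26.3, 23.5 and 24.1 FPKM at 24 h. The 144 h groups were apart, and without exposed replicate 2 the log2 fold change was -0.55, under the threshold. GPHA2 overlaps exons of PPP2R5B on the opposite strand, which had a log2 fold change of 0.20 (adjusted p = 0.0418), and use of strand in the counting is likewise not given in the sources used here.

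ADM2, a peptide of the adrenomedullin family, was 1.18, 1.47 and 1.17 FPKM untreated and 1.97, 2.07 and 1.84 FPKM exposed at 24 h (0.59, SE 0.11, adjusted p = 0.00255), and 2.02, 2.38 and 1.95 against 3.01, 3.06 and 3.25 FPKM at 144 h (0.54, SE 0.11, adjusted p = 0.000761). The exposed libraries were higher at both times, and the call at 24 h rested on the fold threshold, with 0.54, 0.54 and 0.55 without untreated replicate 1, untreated replicate 3 and exposed replicate 2 and 0.38 with a pseudocount of 1. NPFF, a pain-modulating peptide, was 1.77, 1.55 and 1.21 FPKM untreated and 1.15, 0.6 and 0.74 FPKM exposed at 24 h (-0.82, adjusted p = 0.0582), and 0.79, 1.46 and 1.23 against 1.31, 1.86 and 2.27 FPKM at 144 h (0.61, adjusted p = 0.0597). NPFF was not a DEG at either time, and lay lower with TPN at 24 h and mostly higher at 144 h. It rests on about 4.4 fragments per library and shares exons with the read-through gene ATF7-NPFF. That gene had a mean of 0.857 FPKM and a log2 fold change of 2.13 at 144 h (adjusted p = 0.0656). How reads in the shared stretch were assigned was not tested. Over all alternatives the log2 fold change of NPFF ran from -1.05 to -0.46 at 24 h and from 0.38 to 0.81 at 144 h. Under some of them it was called, with adjusted p values down to 0.0253 at 24 h and 0.0233 at 144 h. NMB and NPW, 2 neuropeptides near 6 FPKM, had log2 fold changes of 0.10 and 0.09 at 144 h, and OXT, AVP and GNRH1, hypothalamic peptides, had -0.78, -0.38 and 0.28 with intervals that all included 0.

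TSPO, a cholesterol-binding translocator of the outer mitochondrial membrane first known as the peripheral benzodiazepine receptor, had the second largest difference. It was 3.49, 4.42 and 3.91 FPKM untreated and 12.2, 11.9 and 13 FPKM exposed at 144 h (1.63, SE 0.13, 95% interval 1.34 to 1.92, adjusted p = 2.93e-07), and 7.14, 8.79 and 6.9 against 6.56, 8.93 and 9.95 FPKM at 24 h. Its untreated libraries at 144 h were the lowest and its exposed libraries at 144 h the highest of the 4 groups. LYNX1, a modulator of nicotinic receptors, had a log2 fold change of -0.13 at 144 h.

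**Figure D4:**
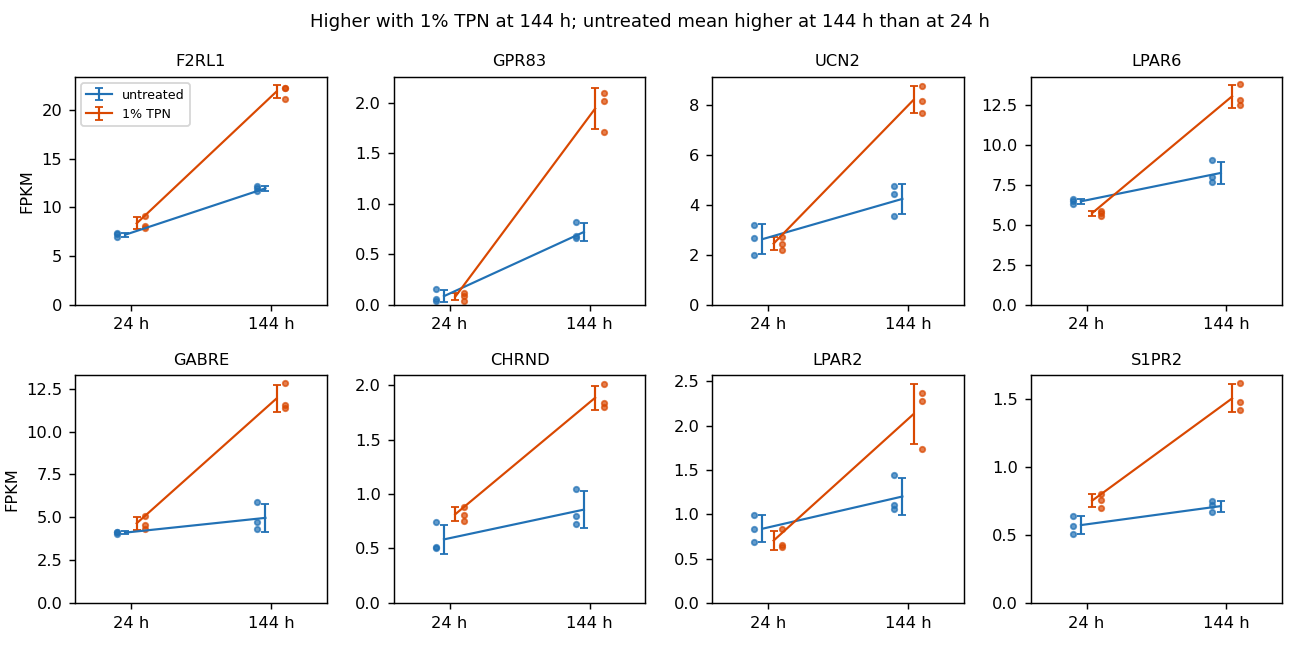
FPKM at 24 h and 144 h in untreated (blue) and exposed (orange) spheroids for 8 of the 9 members that were higher with TPN at 144 h and whose untreated mean was higher at 144 h than at 24 h (UCN is not drawn), with 1 point per library and lines between group means with SD bars. GPR83 is near 0 at 24 h in both groups, and at 144 h the 3 exposed points of each gene lie above the 3 untreated ones. The TPN and time differences at 144 h share the untreated 144 h libraries.

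After 24 h the DEGs among the members were the 3 named above, P2RY6, ADM2 and ADORA2A, all higher in exposed spheroids, beside 0.914% of all genes tested (0.64% higher and 0.273% lower). The other 49 did not pass. Without the fold threshold 8 members passed, beside 10.5% of genes. P2RY6 and ADORA2A were DEGs at both time points.

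Whether TPN acted differently at the 2 time points was tested by subtracting the 24 h log2 fold change from the one at 144 h. This difference was called for 14 members, 13 of them more positive at 144 h, beside 5.87% of all genes (4.2% more positive and 1.66% more negative). Without a size threshold it was 23 members and 30.4% of genes. The largest were SSTR3 with 1.81 (SE 0.17, adjusted p = 7.72e-06), TSPO with 1.49 (SE 0.19, adjusted p = 7.05e-05), NPFF with 1.43 (SE 0.36, adjusted p = 0.00905) and GPR83 with 1.34. GPR83 passed the limit through its 144 h libraries only and was not called with a pseudocount of 0.01 (adjusted p = 0.0895). The order of the 4 changed with a pseudocount of 1 and with single libraries left out, and over all alternatives the lowest values were 1.01 for SSTR3, 1.31 for TSPO, 0.84 for NPFF and 0.78 for GPR83. For P2RY6 the difference was 0.16, with a 95% interval from -0.20 to 0.51, and for ADORA2A it was 0.14, from -0.23 to 0.51, so a moderate change between the times is within both intervals. P2RX4 had a called difference of 0.64 (SE 0.08, adjusted p = 5.27e-05) without a DEG call at either time. GPHA2 had the 1 negative difference, -0.61 (SE 0.13, adjusted p = 0.00247), which was -0.55, -0.56, -0.57 and -0.52 without untreated 24 h replicate 1, exposed 24 h replicate 1, untreated 144 h replicate 1 and exposed 144 h replicate 2. S1PR2 had 0.64 (SE 0.18, adjusted p = 0.0162), which was 0.57 without untreated 24 h replicate 1 and 0.51 under quantile normalization. With a pseudocount of 1 the difference was not called for S1PR2 (0.39), LTB4R (0.49) and GPHA2 (-0.57).

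Untreated spheroids themselves differed between 144 h and 24 h, in 23 members, 13 higher and 10 lower at 144 h, beside 19% of all genes (6.8% higher and 12.2% lower). The values as deposited had a median log2 difference of -0.18 over all genes in this comparison, and -0.01 after median ratio scaling, with which the split was 16 higher and 6 lower among the members and 10.5% higher and 5.46% lower among all genes. Without the fold threshold 38 members differed, beside 72.6% of genes. Time in culture, duration without TPN and any difference between the library sets cannot be told apart in this comparison, and it shares the untreated 144 h libraries with the TPN comparison at 144 h, so the 2 are not independent.

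Among the 5 largest rises with time in untreated spheroids was that of P2RX1, from 0.42, 0.35 and 0.11 FPKM to 2.18, 2.6 and 2.25 FPKM (log2 difference 2.73, SE 0.29, adjusted p = 1.47e-06). ADM rose by 2.69 (SE 0.09, adjusted p = 1.97e-11) and AGTR1 by 2.53, from 0.24, 0.32 and 0.14 FPKM to 1.51, 1.87 and 1.97 FPKM. GPR83 rose by 2.2 and PTAFR by 1.93, from 1.47, 1.43 and 1.44 FPKM to 5.63, 6.13 and 5.69 FPKM (adjusted p = 1.15e-09). In all 5 genes the 3 libraries of 144 h were above the 3 of 24 h. AGTR1 and GPR83 reached the 0.5 FPKM limit in the 144 h groups alone, and P2RX1, AVP and GNRH1 were below it in untreated spheroids at 24 h, so the limit itself favours a rise in these members, and for AGTR1 and GPR83 it is given as a description only. The order of the 5 depended on the pseudocount and on single libraries. With a pseudocount of 1 the rise was 1.48 for PTAFR, 1.38 for P2RX1, 1.17 for AGTR1 and 0.67 for GPR83, whereas ADM stayed at 2.58 or more under every alternative. Without 1 library P2RX1 ranged from 2.33 to 2.99.

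The largest falls were in SSTR3 (-1.71, SE 0.12, adjusted p = 2.60e-08), LTB4R (-1.17, SE 0.17, adjusted p = 3.54e-05), CHRNA5 (-0.98, SE 0.12, adjusted p = 7.28e-06), TSPO (-0.93, SE 0.13, adjusted p = 2.45e-05) and P2RX5 (-0.79, SE 0.10, adjusted p = 1.01e-05). Relative to the median of all genes these differences are larger than 0.58 in size as well. CHRNA5, a subunit of neuronal-type nicotinic receptors, went from 1.96, 1.77 and 1.82 FPKM to 1.06, 0.77 and 0.85 FPKM. AVP, GNRH1, UCN, LEPR, UCN2, ADM2, F2RL1 and ADORA2B were the other members higher at 144 h, and P2RY2, LYNX1, NPW, VIPR1 and P2RY8 the other members lower. Of the 23, 10 were not called with a pseudocount of 1, namely LTB4R (-0.48), P2RX5 (-0.50), P2RY2 (-0.47), LYNX1 (-0.48), NPW (-0.58), VIPR1 (-0.33), P2RY8 (-0.50), GNRH1 (0.45), UCN2 (0.54) and ADM2 (0.46). The order of the falls depended on the pseudocount as well, since with 1 NPW fell by more than P2RX5 and LTB4R. Over all alternatives the smallest falls were -0.93 for SSTR3 and -0.59 for CHRNA5.

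Several of these calls also hung on 1 library or on the model. AVP had groups that overlapped, a log2 difference of 1.41 and adjusted p values of 0.0894, 0.155, 0.148 and 0.169 without untreated 24 h replicates 1 and 3 and 144 h replicates 2 and 3, and its adjusted p was 0.0704 without the filter on low values, 0.0675 without the intensity trend and 0.0699 with only the libraries of the comparison. GNRH1 had 1.11, and 0.97 and 0.66 (adjusted p = 0.053 and 0.0815) without 24 h replicate 3 and 144 h replicate 1. NPW had -0.67 and -0.47 without 144 h replicate 2, P2RY8 -0.64 and -0.53 without 144 h replicate 3, UCN2 0.69 and 0.51 without 24 h replicate 1, and VIPR1 -0.66, with -0.55 and -0.57 without 24 h replicate 1 and 144 h replicate 1. Under median ratio scaling NPW, P2RY8, LYNX1 and VIPR1 no longer passed the fold threshold, nor did NPW, P2RY8 and VIPR1 under quantile normalization.

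In spheroids exposed to TPN, 26 members differed between 144 h and 24 h, 18 higher and 8 lower at 144 h, beside 26.7% of all genes (9.51% higher and 17.2% lower). Median ratio scaling gave 23 higher and 3 lower, beside 13.9% and 9.34% of all genes, and without the fold threshold 40 members differed, beside 76.2% of genes. NPW and VIPR1 were among the lower ones, and left the call without exposed 144 h replicate 1 (NPW, -0.52) and without exposed 24 h replicates 2 and 3 and 144 h replicate 3 (VIPR1, -0.58, -0.58 and -0.57). SSTR3 and LTB4R, which fell with time in untreated spheroids, had log2 differences of 0.10 and 0.01 with TPN. TSPO and P2RX5 had 0.56 (adjusted p = 0.00168) and 0.39 (adjusted p = 0.00357), and none of these was called with the values as deposited. The median over all genes in this comparison was -0.18 as deposited and -0.01 after median ratio scaling. Relative to the deposited median TSPO was above 0.58. The 5 largest rises with TPN were in GPR83 (3.55), AGTR1 (3.22), P2RX1 (2.54), PTAFR (2.48) and ADM (2.19), of which GPR83 and AGTR1 passed the limit through their 144 h libraries only. With the pseudocount of 0.1, the 5 largest falls were in GPHA2 (-1.17), ADRA2C (-0.87), CHRNA5 (-0.80), P2RY8 (-0.73) and LYNX1 (-0.71). Their order depended on the pseudocount, since NPW (-0.67) was still called with 1 and all of these but GPHA2 were not. At a pseudocount of 1 ADRA2C (-0.44), CHRNA5 (-0.50), P2RY8 (-0.54), LYNX1 (-0.47), P2RY2 (-0.36), VIPR1 (-0.31), ADM2 (0.47) and S1PR2 (0.52) were not called. Under median ratio scaling P2RY8 (-0.56), LYNX1 (-0.54), NPW (-0.50), P2RY2 (-0.48) and VIPR1 (-0.50) were not, and NPW (-0.57) was not under quantile normalization. The members that median ratio scaling added to the higher ones are not named here. With the pseudocount of 1 GPR83 (1.45), AGTR1 (1.45) and P2RX1 (1.55) rose by less.

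Proximal promoters are shown for SSTR3 and TSPO, the members with the largest differences at 144 h, for GABRE, a receptor subunit that was higher, for UCN2, a ligand that was higher, and for ADM, the ligand with the largest rise with time. The sequences are RefSeq, build GRCh38.p14, 200 bases each that end 20 bases before the first listed start, 5′ to 3′ on the strand of the gene. They are SSTR3 at chr22:37212498-37212697 (minus strand), TSPO at chr22:43151339-43151538 (plus strand), GABRE at chrX:151974697-151974896 (minus strand), UCN2 at chr3:48563802-48564001 (minus strand) and ADM at chr11:10304853-10305052 (plus strand). Capitals mark matches on either strand to 5 motifs. These were the hypoxia response core, spelled ACGTG, the antioxidant response element, spelled TGACNNNGC, the cyclic AMP response element, spelled TGACGTCA, the GC-rich Sp1 box, spelled GGGCGG, and the box bound by the general transcription machinery, spelled TATAAA. Neighbouring GGGCGG matches in the TSPO window overlap.
SSTR3: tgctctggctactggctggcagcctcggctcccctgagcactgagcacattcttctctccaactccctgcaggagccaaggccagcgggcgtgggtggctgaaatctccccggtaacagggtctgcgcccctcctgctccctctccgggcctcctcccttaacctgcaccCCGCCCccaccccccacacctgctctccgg
TSPO: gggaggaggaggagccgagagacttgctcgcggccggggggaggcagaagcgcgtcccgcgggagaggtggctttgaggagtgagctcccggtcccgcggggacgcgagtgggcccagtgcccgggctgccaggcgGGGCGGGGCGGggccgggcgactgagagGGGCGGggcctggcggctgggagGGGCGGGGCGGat
GABRE: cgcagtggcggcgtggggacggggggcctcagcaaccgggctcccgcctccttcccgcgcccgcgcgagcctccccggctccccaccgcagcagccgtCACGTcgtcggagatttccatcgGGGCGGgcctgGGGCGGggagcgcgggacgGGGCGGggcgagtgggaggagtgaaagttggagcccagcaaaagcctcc
UCN2: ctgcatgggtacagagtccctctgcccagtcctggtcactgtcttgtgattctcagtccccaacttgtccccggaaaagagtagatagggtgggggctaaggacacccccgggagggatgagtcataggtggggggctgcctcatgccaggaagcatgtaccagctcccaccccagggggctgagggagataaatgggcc
ADM: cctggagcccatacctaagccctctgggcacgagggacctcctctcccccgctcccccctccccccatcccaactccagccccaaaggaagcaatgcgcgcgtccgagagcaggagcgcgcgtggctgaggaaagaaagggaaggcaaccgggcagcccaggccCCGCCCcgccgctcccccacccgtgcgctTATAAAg

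The TSPO window held 5 Sp1 boxes, the GABRE window 3 beside 1 hypoxia response core, the SSTR3 window 1, the ADM window 1 beside 1 match to TATAAA, and the UCN2 window held none of the 5 motifs. Sequences of 37 members were used, 14 of them among the 17 that were higher at 144 h, and those of the other members were not used here. GGGCGG was found in 9 of these 14 and in 24 of the 37, beside 38.2% of 27305 human promoters of the same length. ACGTG was found in 1 of the 14 and in 4 of the 37 (15.5% of promoters), TGACNNNGC in 0 and 1 (9.04%), TGACGTCA in 0 and 0 (1.46%) and TATAAA in 1 and 6 (9.54%). GGGCGG and TATAAA were added as motifs after the sequences were seen, so their shares are a description only. All of these are matches of letters within a window and say nothing about binding.

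Known partners of the members were looked up in the same table, and most of those listed were near 0. CALCRL, the receptor chain of adrenomedullin, had a mean of 0.00833 FPKM, while its accessory protein RAMP2 had 2.01 FPKM. The neuromedin B receptor NMBR had 0.025 FPKM, the oxytocin receptor OXTR 0.172 FPKM and the vasopressin receptor AVPR1B 0.025 FPKM. On the receptor side, CORT, a somatostatin-like ligand of SSTR3, had 0.138 FPKM and VIP, the ligand of VIPR1, 0.0342 FPKM, while KISS1, the ligand of KISS1R, had 0.471 FPKM. ENPP2, the enzyme autotaxin that makes lysophosphatidic acid, had a mean of 1.55 FPKM and ranged from 1.14 to 1.88 FPKM.

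Genes that act next to the receptors were examined as lists, chosen like the members with earlier results known, and are given by counts of DEGs at 144 h, beside 5.75% of all genes tested that were higher and 3.73% that were lower. Of 7 RGS proteins tested, which shut off G protein signals, 4 were higher and none was lower, with a median log2 fold change of 0.64 beside -0.02 over all genes. RGS20 had 1.33 (0.553 to 1.55 FPKM, adjusted p = 0.000253), RGS10 0.85, RGS3 0.64 and RGS19 0.62. Of 19 G protein subunits, 4 were higher, namely GNAL (0.96), GNB3 (0.81), GNB5 (0.63) and GNG12 (0.62). Of 9 adenylyl cyclases and phosphodiesterases, which make and degrade cyclic nucleotides, ADCY7 (0.92, adjusted p = 7.60e-08) and PDE4A (0.77) were higher. A list of 12 receptor kinases, arrestins, arrestin-domain proteins and receptor accessory proteins, RAMP2 and CRCP included, had 2 that were higher. Both are arrestin-domain proteins rather than classical arrestins, ARRDC4 with 1.63 (3.98 to 12.6 FPKM, adjusted p = 1.02e-09) and ARRDC3 with 1.2 (7.01 to 16.2 FPKM).

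Enzymes that make or remove ligands were counted in the same way. Of 8 prostanoid enzymes and transporters 3 were higher, PTGR1 with 3.11 (4.86 to 42.3 FPKM, adjusted p = 4.93e-12), TBXAS1 with 0.93 and AKR1C3 with 0.77. PTGR1 and AKR1C3 also reduce other aldehydes and ketones. Of 13 enzymes and transporters of extracellular nucleotides and adenosine, ADA (0.68) and ENTPD2 (0.65) were higher and ALPL (-0.98) and SLC29A2 (-0.61) lower. Among 10 enzymes of lysophospholipids and sphingosine phosphate none was a DEG, and the most abundant, SPHK1, had -0.06. Of 15 genes for processing and breakdown of peptides 1 was lower, the convertase FURIN with -0.72 (18.2 to 11 FPKM, adjusted p = 6.55e-08).

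The same counts were made for lists of target genes, which also held some regulators, namely CRTC2, STAT5A, STAT5B, JAK2 and NCOR1. Of 15 genes of the CREB list, CRTC2 included, EGR1 (1.48) and PCK1 (0.96) were higher at 144 h and none was lower. Of 12 genes of the STAT5 list, STAT5A, STAT5B and JAK2 included, IGFBP3 (1.56) and SOCS3 (1.03) were higher and SOCS1 (-0.65) lower. Of 11 glucocorticoid receptor targets 3 were higher and 2 lower, with HSD11B2 (-1.47), ANGPTL4 (1.10), MT2A (0.71) and NFKBIA (-0.64) as the largest. Of 7 genes of the thyroid hormone receptor list, NCOR1 included, CPT1A (0.96) was higher and none was lower. A last list held genes of neurons rather than receptor targets, and of its 5 synaptic vesicle and neurite genes tested, SNCG (2.43) and TUBB3 were higher and SYP (-0.73) lower.

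Markers of other cell types moved with these comparisons as well, and their part in the members' values was not tested. Of the 10 hepatocyte markers tested none was higher and 3 were lower at 144 h, AFP (-0.69), ALB (-0.65) and TF (-0.59), and of 9 stellate cell markers tested 4 were lower, COL3A1 (-1.40), COL1A1 (-1.25), COL1A2 (-1.07) and VIM (-1.07). With time, 7 of the 9 stellate cell markers were lower and none was higher at 144 h in untreated spheroids (median log2 difference -2.11) and in exposed ones (median -2.88), while PDGFRB and ACTA2 were not called. The neuronal list summed to 92.7 to 99.6, 106 to 112, 66.6 to 72.1 and 111 to 112 FPKM in the order untreated 24 h, exposed 24 h, untreated 144 h and exposed 144 h, nearly all of it TUBB3, and the 2 neuronal markers tested were TUBB3 and SYP. The neuroendocrine list summed to 1.59 to 2.39, 1.15 to 1.75, 0.4 to 1.08 and 1.13 to 1.36 FPKM, with CHGB called at 0.94. The macrophage list summed to 47.3 to 49.0, 51.8 to 56.2, 49.0 to 49.5 and 63.2 to 66.2 FPKM, and the cholangiocyte list to 334 to 352, 320 to 327, 301 to 313 and 271 to 280 FPKM, without a DEG in either. Only 2 of the 6 macrophage markers and 3 of the 5 cholangiocyte markers reached the 0.5 FPKM limit. The spheroids were made from C3A and LX-2 cells alone, and what these sums reflect was not tested.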

How the data were processed

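Bulk RNA sequencing covered 12 libraries, 3 for each of 4 groups of spheroids. The libraries were strand-specific per the labels. The authors filtered reads with SOAPnuke, aligned them with HISAT2 2.0.4 and mapped them to transcripts with Bowtie2 2.2.5 (versions as in the submitters' processing notes), and calculated expression with RSEM. The values used are the FPKM deposited by the authors, rounded to 2 decimals. FPKM are not counts, so limma 3.58.1 in R 4.3.3 was applied to log2(FPKM + 0.1) of the 11713 genes with a mean of at least 0.5 FPKM, with 1 fit of 4 groups, eBayes with an intensity trend and Benjamini-Hochberg adjustment, whereas the study's methods name DESeq2 on counts. The fold and p thresholds are those of the study's methods. A further 20 lines of the table named no gene and were left out.

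Depth was estimated from steps in the FPKM of 74 short genes with GENCODE v44 lengths, and 91.9% of their values lay within 0.2 of a whole fragment. The depth and a length shift were chosen to bring these values close to whole fragments, so this share is not a check of the estimate. The estimate need not match the authors' reference.

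Members and lists were chosen with earlier results of these data known. All members may be named, with values per library for those called in a TPN comparison or in the difference between time points and for the 6 most abundant, and for time the 5 largest rises and falls. Up to 4 called genes are named per list, or the most abundant one. The GC and TATA boxes, and the promoters shown, were chosen after values and sequences were seen. The procedure was tested on simulated data. Alternatives changed the pseudocount, the filter, the scaling, the model and the threshold, added a replicate block or left out each library. Tables and figures used Python 3.11.15 with numpy 2.4.6, pandas 2.3.3 and matplotlib 3.10.9.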

Additional observations from a re-analysis of the deposited data

Results flagged for a closer look

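For 14 members the effect of TPN differed between the 2 time points when the difference itself was tested with limma (adjusted p below 0.05 and a size above 0.58, called for 5.87% of all genes). The effect at 144 h exceeded the one at 24 h on the log2 scale by 1.81 for SSTR3, 1.49 for TSPO, 1.43 for NPFF, 1.34 for GPR83, 1.19 for LTB4R, 1.17 for P2RX5, 1.09 for GABRE, 1.02 for UCN2 and 1.00 for LPAR2. The difference was 0.83 for LPAR6, 0.66 for F2RL1, 0.64 for P2RX4, 0.64 for S1PR2 and -0.61 for GPHA2. NPFF rests on about 4.4 fragments per library and shares exons with ATF7-NPFF, which had a log2 fold change of 2.13 at 144 h (adjusted p = 0.0656). GPR83 passed the 0.5 FPKM limit through its 144 h libraries only, and its difference was not called with a pseudocount of 0.01 (adjusted p = 0.0895).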

How the results depend on the processing

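With a pseudocount of 1, members called were 1 at 24 h (0.495% of all genes) and 13 for untreated time (13.7%), with 13 at 144 h (5.96%) against 19. Among genes of at least 5 FPKM, which holds 17 members, the counts were 0 at 24 h (0.708% of these genes), 6 at 144 h (6.27%), 6 for the difference between time points (3.38%), 5 for untreated time (16%) and 8 for exposed time (24.3%). Without a fold threshold they were 8, 32, 23, 38 and 40. Leaving out 1 library gave 2 to 4 at 24 h (0.871% to 1.02% of all genes), 18 to 21 at 144 h (9.12% to 9.82%), 13 to 17 for the difference (5.52% to 5.94%), 21 to 27 for untreated (18.7% to 19.6%) and 25 to 29 for exposed time (26.2% to 27.3%). Reversed directions concerned values that were not called. With 1 library left out, the 24 h values ran from -0.043 to 0.54 for GALR2 (negative without untreated replicate 2), from -0.097 to 0.025 for GPHA2 and from -0.25 to 0.075 for UCN2 (both positive without untreated replicate 3), from -0.20 to 0.22 for GPR83 (0.22 without untreated replicate 1, 0.13 without exposed replicate 3) and from -0.15 to 0.47 for UCN (negative without exposed replicate 2). The difference between time points ran from -0.15 to 0.030 for ADM2 (positive without untreated 144 h replicate 2, and 0.017 with pseudocount 1) and from -0.0033 to 0.25 for ADORA2A (negative without untreated 24 h replicate 1). For all of them the cause was not tested.

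Alternatives of single members were followed for 115 values. For the TPN comparisons and the difference these belonged to members called in any of them, and for the time comparisons to members called there. Gains of other members were therefore not counted, and for time none could arise. Of 2542 alternative values followed, 82 lost and 27 gained a call. Of the losses, 29 came with pseudocount 1, among them ADRA2C, GALR2, LPAR2, LTB4R, S1PR2 and ADORA2A at 144 h. The gains included CHRND, MC1R and ADRA2C in the difference. With pseudocount 0.01 the difference for GPR83 was not called. Replicate numbers were not used for pairing, since correlations of same-numbered deviations ran from -0.083 to 0.151 and 5 of 18 exceeded 0.1, and whether they mark shared experiments is not settled. With the replicate number as a block, 3 members were called at 24 h (0.948% of all genes), 18 at 144 h (9.46%), 15 in the difference (5.8%), and 23 (19%) and 26 (26.7%) for untreated and exposed time. UCN at 144 h was lost (adjusted p = 0.054), CHRND was gained in the difference (0.63, adjusted p = 0.024), and the block changed no other call. Low depth limits NPFF, OXT, AVP and GNRH1.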

Other observations

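A further 9 genes of the pathway had a mean below 0.5 FPKM over the 12 libraries and at least 0.5 FPKM in at least 1 group, and were not tested. P2RY11, an ATP receptor, was listed at 0 in all 6 libraries of 24 h, at 0.3, 0 and 0 FPKM in untreated and at 1.5, 2.17 and 1.76 FPKM in exposed spheroids at 144 h. P2RX7, the ATP-gated channel known from inflammasome activation, was 0.26, 0.26 and 0.24 FPKM untreated and 0.89, 0.94 and 1.08 FPKM exposed at 144 h, and 0.03 to 0.08 FPKM at 24 h. DRD5, a dopamine receptor, was 0.34, 0.2 and 0.33 FPKM untreated and 0.79, 0.79 and 0.81 FPKM exposed at 144 h, and at most 0.03 FPKM at 24 h. EDN1, the vasoconstrictor endothelin 1, was 0.18 FPKM in each untreated library and 0.55, 0.81 and 0.58 FPKM exposed at 144 h, and 0.13, 0.18 and 0.24 FPKM untreated and 0.07, 0.1 and 0.07 FPKM exposed at 24 h, so that the exposed libraries were the lower ones at 24 h and the higher ones at 144 h. LHB, the luteinizing hormone beta subunit, was 0.21, 0.21 and 0.2 FPKM untreated and 0.85, 1.47 and 1.05 FPKM exposed at 144 h, with 0.3, 0.42 and 0 against 0.43, 0 and 0.65 FPKM at 24 h. LTB4R2, the low-affinity leukotriene B4 receptor, was 0.29, 0.26 and 0.25 FPKM untreated and 0.48, 0.61 and 0.56 FPKM exposed at 144 h, with 0.47, 0.65 and 0.55 against 0.45, 0.69 and 0.57 FPKM at 24 h. In these 6 genes each exposed library at 144 h was above each untreated one, as in 27.2% of all genes tested. P2RY11, P2RX7, DRD5, EDN1, LHB and KISS1 had a mean of at least 0.5 FPKM in exposed spheroids at 144 h alone. The way they were picked therefore favours such a difference, and it is given as a description only. KISS1 was 0.82, 0.24 and 0.35 FPKM untreated and 0.85, 0.36 and 0.72 FPKM exposed at 144 h, which overlapped. NPB, a neuropeptide, was 0.35, 0.17 and 0.17 FPKM untreated and 0, 0.17 and 0 FPKM exposed at 144 h, which also overlapped, and CHRNE was the remaining one. These genes were chosen after their values were seen.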
